A study of Homo sapiens with 4 samples.

Results

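The enzymes described here carry nitrogen between ammonia, glutamine, glutamate, arginine and ornithine, and they comprise CPS1, CAD, ASS1, ASL, ARG2, OAT, GLUL, GLUD1 and ODC1. These 9 genes, of 20046 with a named probe, were taken through every probe that the annotation of the array assigned to them, 17 of the 47228 probes on each array. They were chosen with their levels and their ratios to the control array already known, so both are given as a description and no test of them is offered as support.

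RNA came from A549 cells, a human lung adenocarcinoma line known to carry an inactivating STK11 mutation, and was measured on Illumina HumanHT-12 BeadChips. siEPEL cells received siRNAs against the long noncoding RNA EPEL, with a different siRNA on each of 3 arrays, named here siRNA 1, siRNA 2 and siRNA 3. Control cells received a non-targeting siRNA and were measured on 1 array. All siRNAs were given at 50 nM with a cationic lipid reagent, and all cells grew in RPMI 1640 medium with 10% fetal bovine serum and 2 mM L-glutamine. The labels do not say whether the samples came from separate cultures, each siRNA was measured on 1 array, and the level of EPEL was not analysed here, so the strength of the knockdown behind each array is not known. The comparison asks which transcripts differ once EPEL is knocked down.

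Carbamoyl phosphate, the activated form of nitrogen, is made by 2 enzymes in human cells. CPS1 makes it in mitochondria from ammonia and passes it to the urea cycle, which runs in full mainly in the liver. CAD makes it in the cytosol from glutamine and starts pyrimidine synthesis. Lung adenocarcinomas that have lost STK11, the kinase LKB1, are known to express CPS1 and to use it to feed pyrimidine synthesis. Downstream, ASS1 and ASL make arginine, arginase cleaves arginine to ornithine, and ornithine goes either to polyamines through ODC1 or to glutamate and proline through OAT. GLUL fixes ammonia into glutamine, and GLUD1 releases it from glutamate.

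The start regions of the genes are shown first, because they set CPS1 apart from the remaining members by a feature that the choice of genes did not use. All 9 genes matched RefSeq (GRCh38.p14), with 14 annotated starts, and the 250 bases before each start were read. The share of G and C was 48.4%, 40% and 33.6% before the 3 starts of CPS1, and between 58.8% (CAD) and 82.4% (ODC1) before the 11 starts of the other 8 genes. The median over all 35116 annotated starts was 58%. A CG dinucleotide occurred 1 to 3 times in the CPS1 windows and 19 to 41 times in those of the other members. The GC box GGGCGG, searched on both strands, stood in all 11 windows of the other 8 genes and in 0 of the 3 CPS1 windows, against 42.6% of all windows. The E-box CACGTG stood in 3 of the 14 windows (1 each of CPS1, ASS1 and ODC1), against 6.34% of all windows. The CCAAT box CCAAT stood in 6 windows of 6 genes, CPS1 and CAD among them, against 32.0% of all. These motifs do not overlap each other in the windows printed, and a match is a description of the letters, not of a bound site. The windows before the 3 CPS1 starts are printed with that of CAD, the other carbamoyl phosphate synthetase, and that of the upstream ODC1 start, each 5′ to 3′ with matches to the 3 motifs in capitals.
CPS1, first start, chr2:210477435-210477684, plus strand: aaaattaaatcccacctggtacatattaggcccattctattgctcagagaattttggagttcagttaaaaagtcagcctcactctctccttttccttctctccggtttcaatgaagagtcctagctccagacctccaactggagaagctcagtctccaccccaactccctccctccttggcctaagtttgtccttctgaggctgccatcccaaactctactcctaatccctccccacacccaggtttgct
CPS1, middle start, chr2:210519468-210519717, plus strand: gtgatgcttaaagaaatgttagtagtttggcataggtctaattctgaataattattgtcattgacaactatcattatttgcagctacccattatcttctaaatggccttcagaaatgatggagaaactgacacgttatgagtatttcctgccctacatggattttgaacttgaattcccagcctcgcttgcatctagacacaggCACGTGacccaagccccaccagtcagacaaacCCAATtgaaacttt
CPS1, last start, chr2:210593105-210593354, plus strand: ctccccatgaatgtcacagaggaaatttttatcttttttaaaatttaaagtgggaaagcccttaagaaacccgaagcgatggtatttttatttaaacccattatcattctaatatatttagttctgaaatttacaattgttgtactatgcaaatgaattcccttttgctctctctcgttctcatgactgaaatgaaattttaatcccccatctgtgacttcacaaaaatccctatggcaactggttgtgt
CAD, chr2:27217119-27217368, plus strand: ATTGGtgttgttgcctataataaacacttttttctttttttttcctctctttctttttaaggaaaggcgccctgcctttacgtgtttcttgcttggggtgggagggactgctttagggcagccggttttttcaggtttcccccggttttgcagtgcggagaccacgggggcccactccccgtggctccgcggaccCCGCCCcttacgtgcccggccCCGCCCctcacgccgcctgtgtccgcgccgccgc
ODC1, upstream start, chr2:10448328-10448577, minus strand: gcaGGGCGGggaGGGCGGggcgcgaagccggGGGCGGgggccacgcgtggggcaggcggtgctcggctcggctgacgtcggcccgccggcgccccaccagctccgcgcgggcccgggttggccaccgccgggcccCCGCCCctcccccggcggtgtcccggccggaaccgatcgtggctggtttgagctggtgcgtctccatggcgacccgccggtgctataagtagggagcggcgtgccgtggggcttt
The first and last CPS1 windows show no capitals and the middle one holds an E-box and a CCAAT box close to the middle start. The CAD window holds 2 GC boxes close to the start and a CCAAT box at its far end, and the ODC1 window holds 4 GC boxes. How these sequences relate to the levels below was not tested.

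The arrays were alike in brightness, with a mean raw bead signal of 381 to 394 with the siEPEL siRNAs and 404 on the control array. Between 16724 and 17106 probes were detected (detection p under 0.01, that is, brighter than nearly all negative control beads) on the siEPEL arrays and 16520 on the control array. The 5 epithelial markers KRT8, KRT18, KRT19, EPCAM and CDH1 were detected on all 4 arrays. Of 7 alveolar type II markers 2 were (ABCA3 and LAMP3), while the surfactant genes and NKX2-1 were detected on 0 arrays. Of 6 hepatocyte markers 0 were detected on all 4 arrays, and ALB was detected by 1 probe with siRNAs 1 and 3 only. Nor were any of 4 endothelial genes, while 1 of 4 leukocyte genes (CD14) and 1 of 5 fibroblast genes (COL3A1) were. The summed raw signal of the epithelial markers was 10925, 7651 and 11489.7 with siRNAs 1, 2 and 3, against 11288 on the control array, so it was lowest with siRNA 2. That of the hepatocyte markers lay between 361 and 382 with the siRNAs and at 365 on the control array. The part of these differences in the results below was not tested. In bulk RNA, fewer cells of a type and less RNA per cell cannot be told apart.

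Across the table, limma called 0 of 18200 tested probes (0%) between siEPEL and control cells at an adjusted p under 0.05, and 381 (2.09%) at an unadjusted p under 0.05. The smallest adjusted p was 1.00, so no member passed in either direction. An exact permutation test of 3 arrays against 1 could not go below p = 0.25. Of the 17 member probes, 8 were detected on all 4 arrays, 2 on some and 7 on none. Brightness is not comparable between probes, so the members are not ranked against each other by signal.

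CPS1, the entry enzyme of the urea cycle, was detected on every array by its only probe, at close to the control level with siRNAs 1 and 2 and far below it with siRNA 3. Its raw signal was 377 with siRNA 1, 358 with siRNA 2 and 179.6 with siRNA 3, against 365 on the control array. The siRNA 3 array alone was low, and the control array lay inside the range of the siEPEL arrays. After background correction and quantile normalization, the log2 levels were 8.44, 8.32 and 7.10 with siRNAs 1, 2 and 3, against 8.32 on the control array. These are 1.09-fold, 1.00-fold and 0.429-fold the control. The authors' processed intensities were 331, 304 and 121 with the siRNAs, against 303 in the control, a ratio of 0.400 for siRNA 3.

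**Figure D1:**
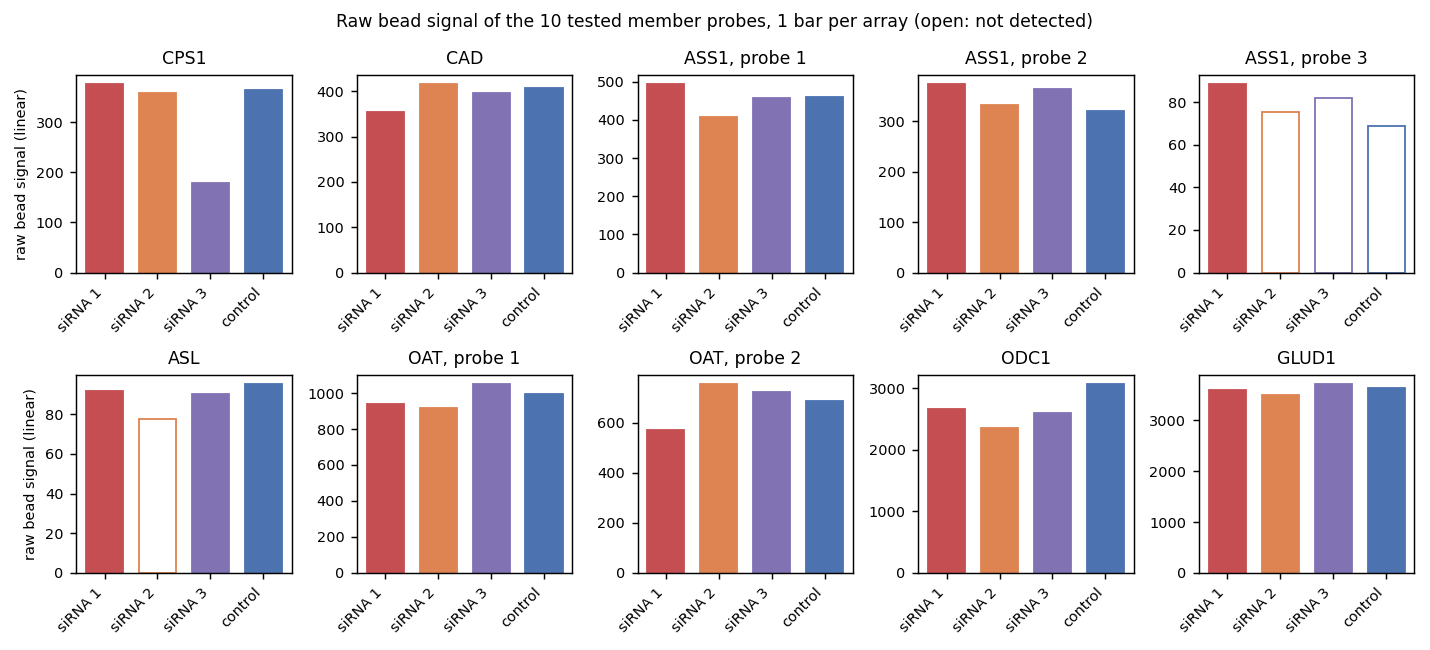
Raw bead signal on a linear scale from 0 of the 10 member probes detected on at least 1 array, with 1 bar per array for siRNAs 1, 2 and 3 and the control, open where the probe was not detected. CPS1 stood at 179.6 with siRNA 3 and between 358 and 377 on the other arrays, while GLUD1 stayed between 3496 and 3714.

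The mean CPS1 log2 ratio over the siRNAs was -0.37 ± 0.74 (SD, 3 siRNAs) or ± 0.45 (SE of limma), and it describes none of the 3 arrays. Without siRNA 3 the mean was 0.06. Among the 15517 probes detected on all 4 arrays the median SD over the siRNAs was 0.16, and 17 probes, CPS1 included, had an SD as wide as that of CPS1. With siRNA 3, 7 of these probes (0.0451%) lay at least 2-fold below the control, and CPS1 was 1 of them, the only member probe among the 8 detected on all 4 arrays. Its ratio was the lowest of all 15517 with siRNA 3 in the normalization used here. By other processing its place from the bottom was 1 with median scaling or cyclic loess, 2 in the authors' table, 3 with the offset raised to 50 and 4 when no background was taken off. Because CPS1 was chosen from this contrast, its place is a description of the siRNA 3 array and nothing is read from the share. CPS1 had no second probe and siRNA 3 no second array, so this value has no replicate.

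**Figure D2:**
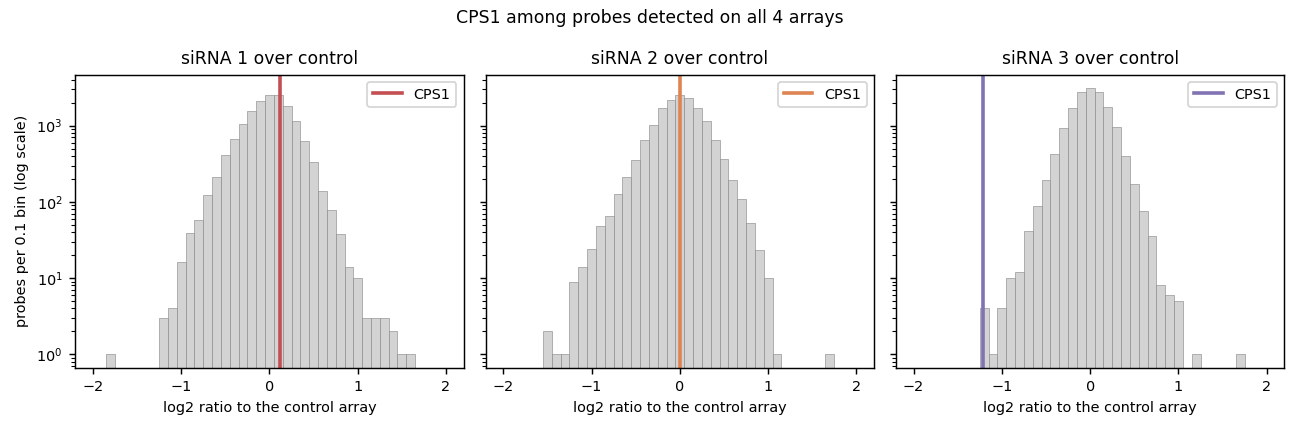
Number of probes (log scale) per bin of 0.1 of the log2 ratio to the control array, for the 15517 probes detected on all 4 arrays, in a panel for each siRNA, with CPS1 as a coloured line. CPS1 lies at 0.12 and 0.00 in the bulk of the probes with siRNAs 1 and 2 and at -1.22, at the low end, with siRNA 3. Ratios were spread least with siRNA 3, where the bin at 0 held 3136 probes, against 2503 and 2519 with siRNAs 1 and 2.

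Around CPS1, the genes listed for its regulation and its activation gave no comparable value. STK11, the kinase mutated in A549, was detected on all arrays at a raw signal of 154, 141 and 122 with siRNAs 1, 2 and 3, against 148 in the control. Its log2 ratios were 0.13, -0.09 and -0.39, with an SD of 0.26 over the siRNAs. Their order over the siRNAs was that of CPS1, but 3 values have few possible orders and a link was not tested. An RNA level does not show whether the mutated kinase is made. STRADA and CAB39, the partners of the kinase, had mean log2 ratios of -0.03 and 0.03 by their brightest probes. A second STRADA probe detected on all 4 arrays stood at 0.37, 0.06 and 0.18 with siRNAs 1, 2 and 3, a mean of 0.20. The liver-enriched transcription factors FOXA1, FOXA2 and CEBPA had mean ratios of 0.05, 0.04 and -0.13, and with siRNA 3 they stood at 0.16, -0.10 and 0.09. MYC stood at 0.05, -0.12 and 0.23 with siRNAs 1, 2 and 3 by its brightest probe, and at 0.08, 0.03 and 0.11 by its second. CPS1-IT1, a transcript from a CPS1 intron, was not detected on any array. NAGS, which makes the N-acetylglutamate that CPS1 needs for activity, was not detected. SIRT5, a mitochondrial deacylase known to activate CPS1, had log2 ratios of -0.05, 0.28 and 0.07 by its brightest probe and, with each sign turned, of 0.03, -0.19 and -0.13 by its second.

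The genes whose 3 ratios lay nearest to those of CPS1, by Euclidean distance over the 3 siRNAs among genes detected on all 4 arrays, were STK32B (distance 0.33), ARL1 (0.34), C6orf52 (0.35), TOR1AIP2 (0.49) and THOC7 (0.49). STK32B had log2 ratios of 0.08, -0.12 and -0.92 with siRNAs 1, 2 and 3. ARL1, a small GTPase of the Golgi, had 0.20, -0.32 and -1.15. That all 5 were lowest with siRNA 3 follows from choosing them by nearness to CPS1, and with 3 values per gene such likeness is loose.

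CAD, the cytosolic counterpart that joins carbamoyl phosphate synthesis to the first steps of the pyrimidine ring, differed little between the arrays. Its raw signal was 353, 416 and 395 with siRNAs 1, 2 and 3, against 406 in the control. The siEPEL arrays lay on both sides of the control array. The log2 ratios were -0.16, 0.07 and -0.05, a mean of -0.05 ± 0.11 (SD, 3 siRNAs). With siRNA 3, where CPS1 was at 0.429-fold, CAD was at 0.965-fold the control.

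ASS1, which joins citrulline and aspartate in the cytosol, was read by 3 probes that did not give the same picture. The brightest had a raw signal of 494, 406 and 458 with siRNAs 1, 2 and 3, against 460.5 in the control. The second had 375, 333 and 365, against 320.4 in the control, so its siEPEL arrays all lay above the control while those of the brightest lay on both sides. Their mean log2 ratios were -0.01 ± 0.16 and 0.21 ± 0.11 (SD, 3 siRNAs). The 2 probes differed by 0.22, where the 2423 genes with 2 or more probes detected on all 4 arrays had a median difference of 0.12 between their 2 brightest, with opposite signs in 36.4% of these genes. The remaining ASS1 probe was detected on the siRNA 1 array alone, at 88.6, with 75.3 and 82.2 for siRNAs 2 and 3 and 69.0 in the control. It entered the tested set only through siRNA 1, and no fold above 1 could be given for it. ASS1 is known to have many processed pseudogenes, and whether they contribute to a probe's signal was not tested. The 2 ASS1 probes detected on all 4 arrays were both highest with siRNA 1 and lowest, among the siRNAs, with siRNA 2.

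ASL, which splits argininosuccinate into arginine and fumarate, lay at the limit of detection. Its brightest probe gave 91.6, 77.7 and 90.1 with siRNAs 1, 2 and 3, against 95.2 in the control, and was not detected with siRNA 2. The siEPEL arrays were all below the control array, at log2 ratios of -0.06 and -0.09 with siRNAs 1 and 3. No ratio is given for siRNA 2, where the probe was at background. A further 2 ASL probes were detected on 0 arrays.

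ARG2, the mitochondrial arginase, was not detected on any array. Its probe gave 73.0, 72.3 and 79.6 with siRNAs 1, 2 and 3, against 67.2 in the control, with detection p-values of 0.0403, 0.0364 and 0.0208, against 0.113 in the control. All 4 values are at the background, so no fold is given. ARG1, the cytosolic arginase of the liver, and OTC, which joins carbamoyl phosphate to ornithine in the urea cycle, were not detected either. Of the urea cycle enzymes proper, CPS1 and ASS1 were thus detected on all 4 arrays, ASL on 3, and OTC and ARG1 on 0.

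OAT, the mitochondrial aminotransferase between ornithine and glutamate semialdehyde, was close to the control by both probes. The brighter probe had 941, 919 and 1049 with siRNAs 1, 2 and 3, against 997 in the control. The other had 571, 754 and 721, against 687 in the control. In both the control array lay within the range of the siEPEL arrays. Their mean log2 ratios were 0.00 ± 0.08 and 0.02 ± 0.22 (SD, 3 siRNAs). The probes differed on single arrays, with log2 ratios of -0.03 and -0.22 for siRNA 1 and -0.06 and 0.21 for siRNA 2.

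ODC1, the first enzyme of polyamine synthesis and a known MYC target, was lower than the control with each siRNA by a small and even amount. Its raw signal was 2663, 2358 and 2595 with siRNAs 1, 2 and 3, against 3064.5 in the control. The groups did not overlap. The folds were 0.891, 0.828 and 0.882, and the mean log2 ratio was -0.21 ± 0.06 (SD, 3 siRNAs) or ± 0.20 (SE of limma). It was the only member probe of the 8 detected on all 4 arrays that lay below the control with all 3 siRNAs, against 19.9% of such probes on the array. Likewise 1 of the 8, the second ASS1 probe, lay above it with all 3, against 21.1%. Counted by gene, each by its brightest tested probe, 2 of the 7 tested members (28.6%) lay below the control with all 3 siRNAs, ODC1 and the dim ASL, and 0 above it, against 20.3% and 20.5% of all genes tested. Nothing about the members is read from these counts.

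**Figure D3:**
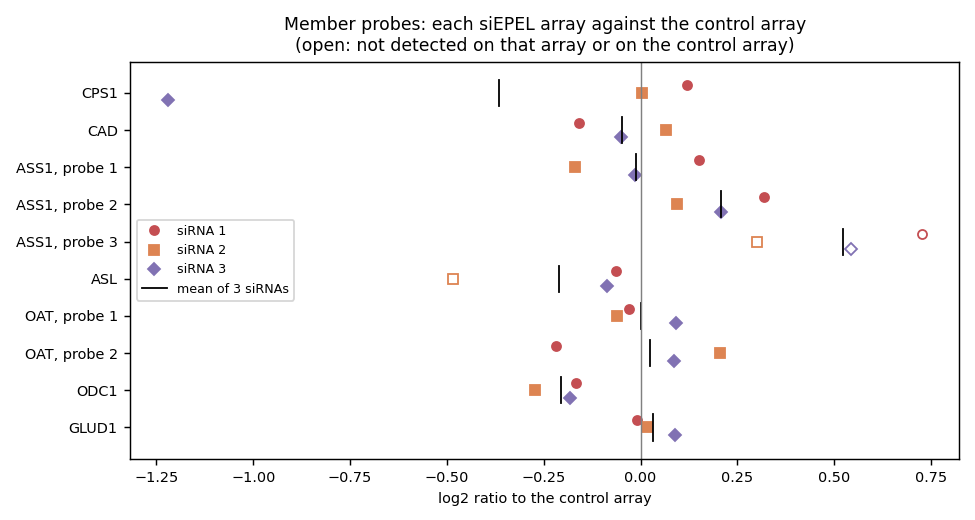
Log2 ratio of each siEPEL array to the control array for the 10 tested member probes, with symbols for siRNAs 1, 2 and 3 and a black bar at their mean. CPS1 with siRNA 3 stands at -1.22, ODC1 lies between -0.27 and -0.17, and open symbols mark ratios with an array on which the probe was not detected, which are not measured folds.

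GLUL, glutamine synthetase, was not detected on any array by any of its 4 probes. Raw signals ranged from 38.9 to 83.0 with the siRNAs and from 46.8 to 78.5 in the control. The 2 brightest probes went opposite ways at background. The first had 79.5, 83.0 and 79.6 with siRNAs 1, 2 and 3, against 65.4 in the control, and the other had 63.2, 57.1 and 57.0, against 78.5. Neither is a measure of GLUL, and no fold is given. A probe below background does not show that a transcript is absent.

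GLUD1, the mitochondrial dehydrogenase that converts glutamate to ketoglutarate and ammonia, was the most even of the members. Its raw signal was 3593, 3496 and 3714 with siRNAs 1, 2 and 3, against 3646 in the control. The control array lay inside the range of the siEPEL arrays. The mean log2 ratio was 0.03 ± 0.05 (SD, 3 siRNAs), and 92.6% of the probes detected on all 4 arrays had a wider SD. Its near-identical paralog GLUD2 was not analysed here, so a share of GLUD2 in this signal was not tested.

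Over the 7 members with a tested probe, each by its brightest, the median log2 ratio was -0.05, against -0.01 over the 10921 genes tested. The median over the members was -0.03 with siRNA 1, -0.06 with siRNA 2 and -0.05 with siRNA 3. With siRNAs 1 and 2, 0 of the 8 member probes detected on all 4 arrays were 1.5-fold or more from the control. The corresponding background was 2.4% lower and 1.55% higher with siRNA 1, and 2.73% lower and 2.04% higher with siRNA 2. The share given above for siRNA 3 was at 2-fold, so it is not comparable with these. CPS1 with siRNA 3, at 0.429-fold, was the value furthest from the control among the 8 probes.

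The other genes of these pathways, 67 in 6 lists, gave no call either. Of these, 61 were analysed here, 52 were tested and 50 of these by a probe detected on all 4 arrays, and limma called 0 higher and 0 lower. Their median log2 ratio was -0.05. With all 3 siRNAs, 12 genes (23.1%) lay above the control and 9 (17.3%) below it, against 20.5% and 20.3% of all genes tested. The 12 include UMPS, not detected on the control array, and the 9 include NOS3, not detected with siRNAs 1 and 3. Nothing about these genes is read from the counts. The values of the 2 genes furthest from the control in each list follow.

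In the urea cycle and arginine list (10 of 15 tested), SLC25A13, the mitochondrial aspartate and glutamate carrier citrin, which supplies aspartate to ASS1, had a raw signal of 1205, 954 and 768 with siRNAs 1, 2 and 3, against 1232 in the control. Its log2 ratios were 0.01, -0.33 and -0.70, so it was lowest with siRNA 3, at 0.617-fold. Unlike CPS1 it was also below the control with siRNA 2, and a link between them was not tested. Its paralog SLC25A12 stood at 0.07, -0.09 and 0.10, and the ornithine carrier SLC25A15 at -0.05, -0.11 and 0.02. DDAH1, which breaks down the methylated arginines that inhibit nitric oxide synthases, had 244, 301 and 288 with the siRNAs, against 195 in the control. All siEPEL arrays were above the control, with a mean log2 ratio of 0.62 ± 0.16 (SD, 3 siRNAs) or ± 0.22 (SE of limma) and an adjusted p of 1.00 (limma). DDAH1 was at 1.36-fold, 1.70-fold and 1.57-fold the control. It was the only gene of the 10 tested in this list (10%) above the control with all 3 siRNAs. Likewise 1 (10%) lay below it with all 3, against 20.5% above and 20.3% below of all genes tested. That gene was NOS3, which was not detected with siRNAs 1 and 3, so its values there are at the background.

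**Figure D4:**
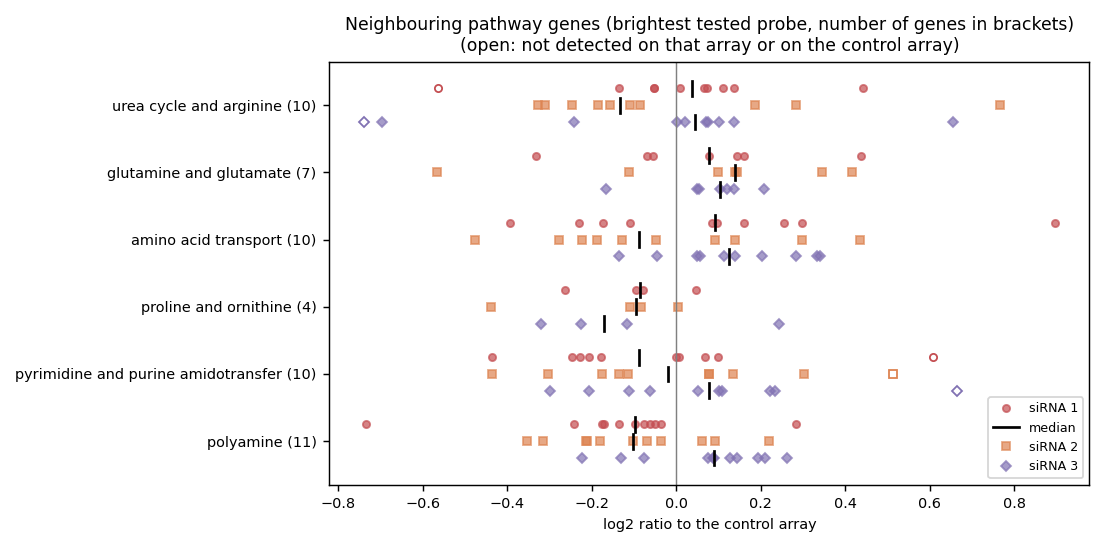
Log2 ratio of each siEPEL array to the control array for the tested genes of the 6 neighbouring lists, each gene by its brightest tested probe, with symbols for siRNAs 1, 2 and 3 and a black bar at each median. The list medians lie between -0.17 and 0.14, and DDAH1 lies between 0.44 and 0.77. Open symbols mark ratios with an array on which the probe was not detected, UMPS among them, and are not measured folds.

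Proline and ornithine genes (4 of 6 tested) had a median of -0.12, with 3 of the 4 (75%) below the control with all 3 siRNAs, against 20.3% of all genes tested, and 1 above it. ALDH4A1, the mitochondrial enzyme that oxidises the product of OAT to glutamate, had log2 ratios of -0.26, -0.44 and -0.32, a mean of -0.34 ± 0.09 (SD, 3 siRNAs). Its further 2 probes detected on all 4 arrays had means of -0.36 and -0.20, also below the control with each siRNA. ALDH18A1, which makes glutamate semialdehyde for proline and ornithine, had a mean of -0.13 ± 0.08.

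In the glutamine and glutamate list (7 of 13 tested), the median was 0.13, and 4 of the 7 (57.1%) lay above the control with all 3 siRNAs and 1 (14.3%) below it, against 20.5% and 20.3% of all genes tested. Asparagine synthetase, ASNS, which takes its amide from glutamine, stood at 0.16, 0.42 and 0.12, and by its second probe at 0.14, 0.75 and 0.14, so both probes were highest with siRNA 2. GFPT1, which uses glutamine to make hexosamines, stood at -0.33, -0.11 and -0.17. Among amino acid transporters (10 of 11 tested, median -0.01), the cystine and glutamate exchanger SLC7A11 stood at 0.90, 0.43 and 0.05. The arginine transporter SLC7A1 stood at 0.16, 0.14 and 0.33, above the control with all 3 siRNAs. Of the 10 tested transporters, 3 (30%) lay above the control with all 3 siRNAs and 0 below it, against the same shares of all genes.

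Genes of the pyrimidine and purine steps (10 of 10 tested) had a median of -0.06. Of these, 3 (30%) lay above the control with all 3 siRNAs and 3 (30%) below it, against 20.5% and 20.3% of all genes tested. UMPS is among the 3 above and was not detected on the control array, so nothing is read from that count. CTPS1, which aminates UTP with nitrogen from glutamine, stood at -0.44, -0.30 and 0.05, and the uridine kinase UCK2 at -0.001, -0.44 and -0.21. UMPS, which completes UMP downstream of CAD, was chosen after its values were seen: it had 107.2, 103.6 and 110.5 with siRNAs 1, 2 and 3, against 86.1 in the control, where it was not detected. After background correction and normalization, it was at least 1.37-fold higher with the siRNAs, against the dimmest signal detected on the control array, with an adjusted p of 1.00 (limma). Since UMPS was tested only because the siEPEL arrays detected it, it had to lie higher there.

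Polyamine genes other than ODC1 (11 of 12 tested) had a median of -0.04. Of these, 0 lay above the control with all 3 siRNAs and 1 (9.09%) below it, against 20.5% and 20.3% of all genes tested. That gene was DHPS, which uses spermidine to modify the translation factor EIF5A, at -0.05, -0.35 and -0.13. PAOX, a polyamine oxidase, stood at -0.74, -0.21 and 0.09. The list medians were -0.10, -0.10 and 0.09 with siRNAs 1, 2 and 3, while ODC1 itself was below the control with each.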

How the data were processed

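The deposited raw intensities are mean bead signals from BeadStudio, per the submitters' processing notes, on a linear scale with no background subtraction or normalization. Per the file headers, a detection p-value stands beside each intensity. The authors' deposited processed intensities of the same arrays, background-subtracted and alike in distribution (12911 to 12941 values below 0 per array), served as an alternative, and how they were made is not stated. Raw intensities were processed with the neqc steps of limma 3.58.1 in R 4.3.3: normexp correction from the detection p-values, an offset of 16, quantile normalization and log2. The offset understates fold changes of dim probes.

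The 18200 probes with a detection p under 0.01 on 1 or more arrays entered lmFit and eBayes, 2-sided, with Benjamini-Hochberg adjustment over all of them calling at 0.05. Residual degrees of freedom were 2, from the 3 siEPEL arrays, whose spread holds differences between siRNAs, and 6.83 from the prior. The control array was assumed to vary like them. The fit was run on simulated data in which the control array varied like the siEPEL arrays, so that run does not test this assumption. The number of arrays limits the precision (median SE 0.22).

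Gene names came from the platform annotation, updated through RefSeq (GRCh38.p14), which changed 0 symbols. Of 47228 probes 30113 had 1 gene, 8 several and 17107 were unnamed here. A gene was represented by its brightest tested probe. Members, gene lists and alternatives were chosen with earlier results of these data known. The named genes were the members, all genes listed for CPS1 regulation, the 2 genes per pathway list furthest from the control among those detected on all arrays, and the 5 nearest to CPS1. Further list genes (SLC25A12, SLC25A15, NAGS, NOS3, SIRT5, OTC, ARG1, UMPS) were chosen after their values were seen.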

Additional observations from a re-analysis of the deposited data

How the results depend on the processing

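No paired analysis was possible because the control array carries no replicate number and each siRNA was measured once. The count of called probes was 0 under all 11 alternatives tried. The CPS1 mean log2 ratio of -0.37 ranged from -0.61 (without siRNA 1) to 0.06 (without siRNA 3), so its sign rests on siRNA 3. The CPS1 ratio with siRNA 3 lay between -1.32 (the authors' processed values) and -0.96 (no background correction), over alternatives chosen after seeing the data. The median of the members, -0.05, was -0.0294 over probes detected on all 4 arrays and -0.0107 without a detection filter. With 1 siRNA left out it ranged from -0.0916 (without siRNA 1) to -0.0449 (without siRNA 3). It moved by more than its SD of 0.02 over the siRNAs under 4 of 11 alternatives (both detection filters, and without siRNA 1 or siRNA 2), and stayed below 0 under all 11. The median of the neighbouring genes ranged from -0.07 to 0.00. Among single members, ODC1 was at -0.27 with median scaling in place of -0.21. The mean of the ASS1 probes is not given, since it includes a probe not detected on the control array. ARG2 and GLUL were below background, so for them nothing can be said of a difference.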

Other observations

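With siRNA 3, 7 of the 15517 probes detected on all 4 arrays lay at least 2-fold below the control, named here after their values were seen. Beside CPS1 these were THUMPD1, a cofactor of transfer RNA acetylation, at log2 ratios of -0.34, -0.27 and -1.19 with siRNAs 1, 2 and 3, and ARL1 at 0.20, -0.32 and -1.15. The immediate early factor EGR1 stood at -1.81, -0.20 and -1.06, low with siRNA 1 as well. RAB8B, a GTPase of membrane traffic, stood at -0.28, 0.26 and -1.03 and THOC7, a subunit of the THO complex of mRNA export, at 0.07, -0.43 and -1.002. The remaining probe had no gene name, at -0.05, 0.01 and -1.16.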
